A study of Mus musculus with 24 samples.

Results

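Matrix metalloproteinases (MMPs) and their tissue inhibitors (TIMPs) were followed in mouse pancreas through caerulein-induced acute pancreatitis, in Nr5a2 heterozygous and wild-type mice. The 10 genes were chosen by name from the 36806 genes of the table. They comprise 7 proteinases (Mmp2, Mmp3, Mmp7, Mmp9, Mmp12, Mmp13 and Mmp14) and 3 inhibitors (Timp1, Timp2 and Timp3), and all 10 were found. Of these, 9 reached 1 FPKM in 3 or more of the 24 libraries, the filter set for testing. Mmp13 did not reach 1 FPKM in any library and was not tested.

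MMPs are zinc-dependent endopeptidases that are made as inactive proenzymes and cleave collagens, laminins, fibronectin and many cell-surface proteins once activated. TIMPs bind the active site and block it. At the cell surface, the membrane-anchored Mmp14 and Timp2 together hold and activate the Mmp2 proenzyme. In the pancreas, acinar cells make digestive enzymes, while stellate cells, fibroblasts, duct cells and infiltrating leukocytes are the usual sources of MMPs and TIMPs after injury. Nr5a2 is a nuclear receptor that acinar cells use to maintain their enzyme program.

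The mice were C57BL. HET mice carried 1 functional Nr5a2 copy (+/-) and WT mice carried 2 (+/+). Pancreatitis was induced by 7 hourly intraperitoneal injections of caerulein, a cholecystokinin analogue, at 50 ug/kg. Tissue was taken at 8, 24 or 48 h, counted from the first of these injections. The 8 groups were HET saline, WT saline, HET 8 h, WT 8 h, HET 24 h, WT 24 h, HET 48 h and WT 48 h, with 3 libraries each. The sources used here do not give the design of the Nr5a2 allele or the animals' sex and age. Nothing in the labels ties each library to an animal of its own, so p-values measure the spread between these libraries.

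Values are FPKM, fragments normalised to transcript length and to a library scale, so they can be compared between genes, and each sum is a sum of FPKM. How the library scale was set is not given in the sources used here. Summed over all genes, a library held 217205 to 1400110 FPKM. Factors that scale each library by the median of ratios to a common profile ran only from 0.925 in WT 48 h to 1.10 in WT 8 h. The values were therefore not simply proportional to each library's total. The number of fragments behind 1 FPKM, recovered from the steps between low values, spanned 15.7-fold, from 0.244 times the median library in HET saline to 3.84 times in HET 48 h. The 6 saline libraries, at 0.244 to 0.522, had the fewest fragments per FPKM, with 1 WT 24 h library at 0.496. This number depends on the library scale too and is not sequencing depth. Saline and 24 h libraries followed an earlier library guide, and 8 h and 48 h libraries a later version, except that 1 WT saline library is in neither list. Comparisons of 8 h or 48 h with saline or with 24 h therefore cannot be told apart from a difference between guides. This includes any ranking of 24 h against 8 h or 48 h, and no such comparison was fitted. The guide was shared by both genotypes at a given time, by 24 h and saline, and by 48 h and 8 h. Nr5a2 itself was at 8.01 to 9.09 FPKM in HET saline and 9.26 to 12.6 FPKM in WT saline libraries, and its log2 difference, not past the threshold at any time, was -0.27 (saline), -0.29 (8 h), -0.22 (24 h) and -0.39 (48 h). The 48 h difference passed only when HET 48 h replicate 1 was left out (-0.61, limma adjusted p = 0.0321). Acinar markers were abundant in saline: 6 enzyme and acinar genes summed to 63490 to 117900 FPKM in HET and 79940 to 121100 FPKM in WT. At 24 h they summed to 2313 to 2994 FPKM in HET and 9953 to 11530 FPKM in WT. They summed to 92.5 to 2830 FPKM in HET and 9935 to 23500 FPKM in WT at 48 h. In bulk tissue, fewer cells of a type and less RNA per cell cannot be told apart.

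Fold changes are on the log2(FPKM + 1) scale, which understates changes of genes near or below 1 FPKM, and are given ± SE. They come from limma, fitted across all genes that passed the filter, and a gene was called at a Benjamini-Hochberg adjusted p under 0.05, two-sided. Members are described in an order chosen after their values were seen: first genes whose mean was highest at 8 or 24 h, then genes highest at 48 h, then those without a call.

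The members Mmp3, Mmp7, Mmp12 and Mmp13 lie in 1 gene cluster on chromosome 9. Between Mmp13 and Mmp7, the annotation holds 9 protein-coding genes, and all 9 are metalloproteinases, in the order Mmp13, Mmp12, Mmp1b, Mmp3, Mmp10, Mmp8, Mmp27, Mmp20 and Mmp7. The other members are single, Mmp2 on chromosome 8, Mmp9 on chromosome 2, Mmp14 on chromosome 14, Timp1 on X, Timp2 on chromosome 11 and Timp3 on chromosome 10. The promoters of the 4 clustered members are shown because Mmp3 and Mmp7 rose after caerulein, and a short element known to bind the AP-1 factors Fos and Jun lies near the start of each. Each line gives the 120 bases just before the annotated start, 5′ to 3′, from RefSeq on GRCm38.p6 (the expression files used mm9), with TGAGTCA or its reverse complement TGACTCA in capitals:
Mmp13, chr9:7272394-7272513, plus strand: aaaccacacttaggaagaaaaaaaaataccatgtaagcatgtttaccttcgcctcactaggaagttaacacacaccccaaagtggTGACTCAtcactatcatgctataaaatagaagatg
Mmp12, chr9:7347254-7347373, plus strand: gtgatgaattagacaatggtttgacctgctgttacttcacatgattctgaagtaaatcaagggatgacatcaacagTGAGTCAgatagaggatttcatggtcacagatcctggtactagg
Mmp3, chr9:7445702-7445821, plus strand: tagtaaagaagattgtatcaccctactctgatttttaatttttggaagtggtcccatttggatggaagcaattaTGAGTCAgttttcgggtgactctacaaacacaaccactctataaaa
Mmp7, chr9:7691970-7692089, plus strand: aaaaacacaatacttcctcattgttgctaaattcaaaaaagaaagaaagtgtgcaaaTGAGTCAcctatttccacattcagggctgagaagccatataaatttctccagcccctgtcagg
Timp1, chrX:20870046-20870165, plus strand: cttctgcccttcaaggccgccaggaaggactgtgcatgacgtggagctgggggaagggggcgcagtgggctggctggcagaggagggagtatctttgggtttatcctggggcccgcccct

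The first base of the match lay 35 bases before the start in Mmp13, 44 in Mmp12, 46 in Mmp3 and 63 in Mmp7. For Mmp12 and Mmp7, which have 2 annotated starts each, the start whose window holds the match is shown. The Timp1 window, shown beside them, holds no match. The table held windows for 8 members, and Mmp2 and Mmp9 are named only. In the 250 bases before the start, TGAGTCA on either strand was found in 4 of 8 members, against 5.16% of 27025 genes with a window of the same length, where a gene with several starts counted if any of its windows matched. Within the cluster, Mmp1b and Mmp10 also held it, and no window of Mmp8, Mmp27 or Mmp20 did. The highest level of a gene with a match ran from a listed 0 for Mmp1b and 0.249 FPKM for Mmp10 to 34 FPKM for Mmp7, and that of a gene without one from 0.0188 FPKM for Mmp20 to 4.28 FPKM for Mmp8. The TATA element TATAAA, searched on the strand of the gene only, lay in the windows of Mmp3, Mmp7 and Mmp13, against 8.94% of genes. The NR5A2 half-site CAAGGTCA was found in 0 of 8 members and 1.51% of genes, and its variant CAAGGCCA in 0 of 8 members and 2.32% of genes, on either strand. A match is only a run of letters in this window and says nothing of binding.

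Timp1, the soluble inhibitor induced in many injured tissues, rose after caerulein in both genotypes, had the largest log2 fold changes of the 9 members at 24 and 48 h, and was higher in HET at 24 and 48 h. Timp1 had 1.78, 5.61 and 5.37 FPKM in HET saline, against 0.977, 1.17 and 1.21 FPKM in WT saline. At 8 h it had 28.6, 23.5 and 45 FPKM in HET and 10.8, 15.7 and 10.3 FPKM in WT. Every HET library was above every WT library at both points. At 24 h, Timp1 reached 121, 103 and 94.4 FPKM in HET, against 44.4, 33.3 and 44.7 FPKM in WT. At 48 h it was at 45.3, 80.7 and 128 FPKM in HET and 16.6, 43.7 and 13.7 FPKM in WT. The ranges stayed apart, although at 48 h the lowest HET library, at 45.3 FPKM, lay just above the highest WT library, at 43.7 FPKM.

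From saline, Timp1 rose in HET by 2.72 ± 0.40 at 8 h, 4.44 ± 0.40 at 24 h and 4.01 ± 0.40 at 48 h, and in WT by 2.63 ± 0.40, 4.29 ± 0.40 and 3.42 ± 0.40 at the same times. The highest of these 6 adjusted p-values was 1.63e-05, at 8 h in WT. Between genotypes, the log2 difference was 1.21 ± 0.40 in saline (limma adjusted p = 0.1) and 1.30 ± 0.40 at 8 h (adjusted p = 0.447), and neither was called. It was called at 24 h, at 1.36 ± 0.40 (adjusted p = 0.0458), and at 48 h, at 1.8 ± 0.40 (adjusted p = 0.00679). The difference between the genotypes' responses was within its error: the interaction was 0.15 ± 0.56 for 24 h against saline (limma adjusted p = 0.927) and 0.50 ± 0.56 for 48 h against 8 h (adjusted p = 0.803).

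The 24 h call for Timp1 lay close to the threshold and was lost under 4 of 6 other settings of the analysis (adjusted p of 0.0569 to 0.0834). It was also lost when any of 15 of the 24 libraries was left out, among them each of the 6 libraries at 24 h, whose adjusted p-values then ran from 0.0671 without WT 24 h replicate 3 to 0.158 without HET 24 h replicate 1. The other 9 that ended it were the 3 WT saline libraries, HET 8 h replicates 1 and 2, the 3 WT 8 h libraries and HET 48 h replicate 2, at 0.0514 to 0.0569. The 48 h call was lost without HET 48 h replicate 3 (adjusted p = 0.0615), WT 48 h replicate 1 (0.0511) or WT 48 h replicate 3 (0.0501). It was also lost with the error of the compared groups alone (limma adjusted p = 0.11). In saline, Timp1 passed without HET saline replicate 1 (1.62, adjusted p = 0.0381).

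**Figure D1:**
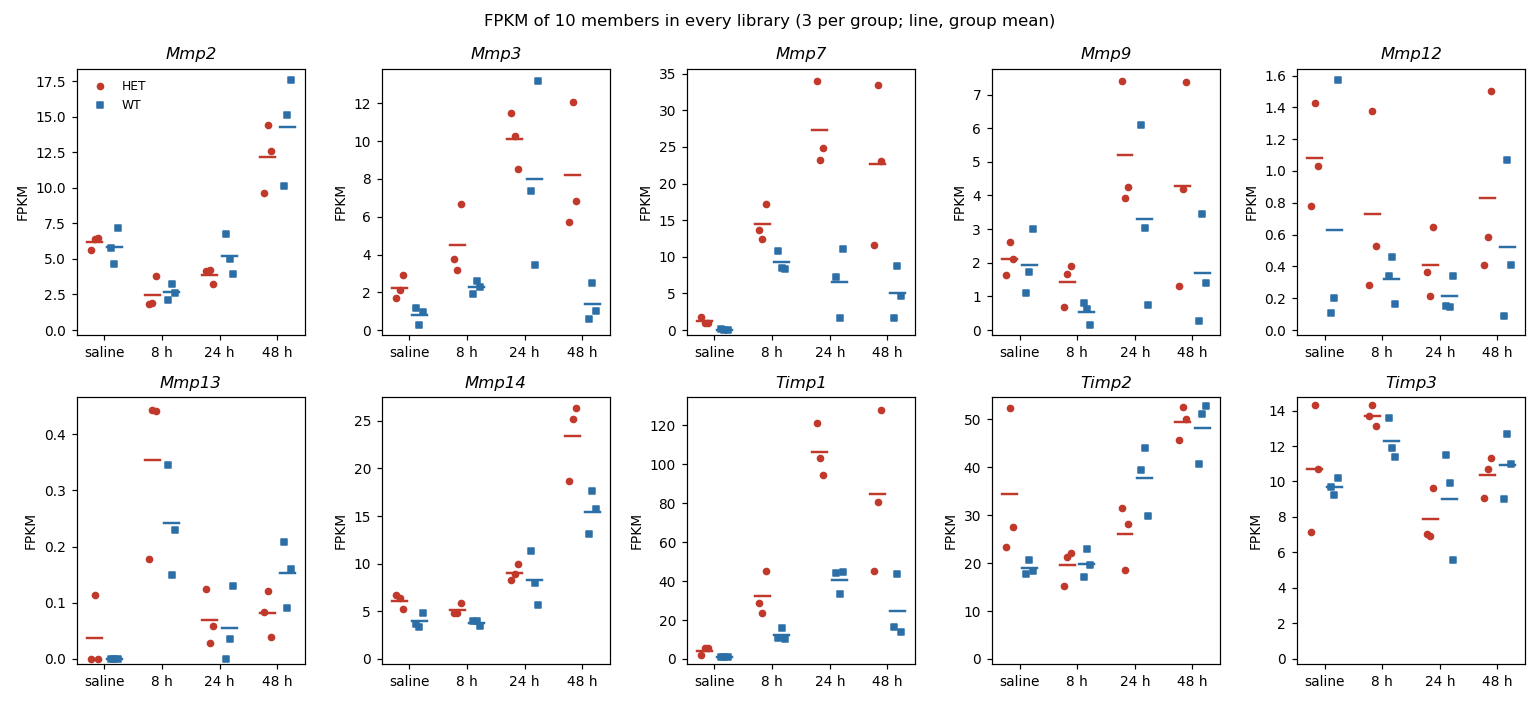
FPKM of the 10 members in every library (linear axes, 1 panel per gene; HET as circles and WT as squares, 3 libraries per group, lines at group means), by saline or hours after the first caerulein injection. Timp1 in HET libraries at 24 h, at 94.4 to 121 FPKM, lies above the WT libraries at 33.3 to 44.7 FPKM, and Mmp14 and Timp2 are highest at 48 h in both genotypes.

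Mmp7, matrilysin, a small secreted proteinase known from duct-like metaplastic cells of the mouse pancreas, was nearly undetected in WT saline and rose in both genotypes. It had 1.75, 0.981 and 0.959 FPKM in HET saline, against 0.178 FPKM in 1 WT saline library and a listed 0 in the other two. At 8 h it had 13.7, 12.4 and 17.2 FPKM in HET and 10.8, 8.48 and 8.4 FPKM in WT. Even the lowest HET library at 8 h was above the highest WT library. At 24 h, Mmp7 had 34, 23.2 and 24.8 FPKM in HET, against 7.22, 1.62 and 11 FPKM in WT. At 48 h it had 11.6, 33.4 and 23.1 FPKM in HET, against 1.7, 8.74 and 4.65 FPKM in WT. HET libraries were all above WT libraries at each of the 4 points, where 14.9% (8 h) to 34.2% (48 h) of all tested genes had ranges apart in either direction.

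Mmp7 was 2.13 ± 0.46 higher in HET at 24 h (limma adjusted p = 0.0102) and 2.05 ± 0.46 higher at 48 h (adjusted p = 0.00814), which are 4.13 and 4.51 times the WT mean FPKM. In saline the log2 difference was 1.06 ± 0.46 (limma adjusted p = 0.214), and at 8 h it was 0.59 ± 0.46 (adjusted p = 1). The saline value depends on the pseudocount: with 0.1 in place of 1 it was 3.19, with an adjusted p of 0.00913. From saline, Mmp7 rose in HET by 2.80 ± 0.46, 3.67 ± 0.46 and 3.31 ± 0.46 at 8, 24 and 48 h, and in WT by 3.27 ± 0.46, 2.59 ± 0.46 and 2.33 ± 0.46, all 6 called. The interaction missed the threshold, at 1.07 ± 0.66 for 24 h against saline (limma adjusted p = 0.421) and 1.45 ± 0.66 for 48 h against 8 h (adjusted p = 0.357). The 24 h genotype call was lost without HET 24 h replicate 1 (adjusted p = 0.0565) or WT 24 h replicate 2 (1.49, adjusted p = 0.0524), and the 48 h call without WT 48 h replicate 1 (adjusted p = 0.0703). Both calls were also lost with the error of the compared groups alone (limma adjusted p = 0.114 at 24 h and 0.099 at 48 h).

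Mmp3, stromelysin, a broad matrix proteinase that can also activate other MMP proenzymes, had its highest mean at 24 h in both genotypes and was higher in HET at 48 h. It had 1.71, 2.13 and 2.91 FPKM in HET saline, against 1.16, 0.25 and 0.959 FPKM in WT saline. At 8 h it had 3.75, 3.16 and 6.66 FPKM in HET and 1.9, 2.6 and 2.28 FPKM in WT, again without overlap. At 24 h, HET libraries had 11.5, 10.3 and 8.55 FPKM and WT libraries 7.37, 3.47 and 13.2 FPKM. Here the groups overlapped, and the highest library was a WT one. At 48 h, Mmp3 had 5.73, 12.1 and 6.85 FPKM in HET, against 0.6, 2.5 and 0.993 FPKM in WT, so that the lowest HET library was above the highest WT library.

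The 48 h difference of Mmp3 was 1.99 ± 0.36 (limma adjusted p = 0.00165), 6.03 times the WT mean FPKM, and it passed without any 1 library. It was lost with the error of the compared groups alone (limma adjusted p = 0.0732). At the other points the log2 difference was 0.88 ± 0.36 in saline (limma adjusted p = 0.187), 0.71 ± 0.36 at 8 h (adjusted p = 0.908) and 0.45 ± 0.36 at 24 h (adjusted p = 0.534). From saline, Mmp3 rose at 24 h by 1.78 ± 0.36 in HET and 2.22 ± 0.36 in WT. At 48 h it was still up by 1.46 ± 0.36 in HET (limma adjusted p = 0.00302), while the WT value was 0.36 ± 0.36 (adjusted p = 0.503). The difference in the change from 8 to 48 h was 1.27 ± 0.51 (limma adjusted p = 0.286), so the 2 courses were not shown to differ. The WT rise at 8 h, 0.90 ± 0.36 (limma adjusted p = 0.0454), was lost when any of 13 libraries was left out, with adjusted p-values of 0.0507 to 0.191, the highest without WT saline replicate 2. It was also lost with no filter on low values (adjusted p = 0.082), when libraries were scaled by the median of ratios to a common profile (0.0655) and when they were scaled to their total without digestive enzyme and Reg genes (0.15). The HET value at 8 h was 0.73 ± 0.36 (limma adjusted p = 0.0961).

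Mmp13, a collagenase, stayed at trace level. Its 18 values above 0 were all whole multiples, within 0.1, of the step that 1 fragment is worth, and they came to 126 fragments in all. Counted in this way, HET 8 h libraries held 7 to 20 fragments and WT 8 h libraries 5 to 16, against 0 to 2 in HET saline and 0 in WT saline. At 24 h the counts were 1 to 4 in HET and 0 to 3 in WT, and at 48 h 5 to 12 in HET and 5 to 7 in WT. These counts are not adjusted for the fragments behind 1 FPKM and do not rank the groups. At 48 h that number was 2.5 to 3.84 times the median library in HET and 1 to 1.65 times in WT. Mean FPKM was 0.070 in HET and 0.055 in WT at 24 h. It was 0.081 in HET and 0.153 in WT at 48 h, and the ranges overlapped at both times. Few fragments per FPKM limit the comparison with saline: 3 fragments, the limit that a count of 0 allows, correspond to 0.187 to 0.242 FPKM in WT saline. The 8 h levels, 0.178 to 0.443 FPKM in HET and 0.15 to 0.345 FPKM in WT, lie partly within that limit, and intervals of this kind cover counting error only.

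**Figure D2:**
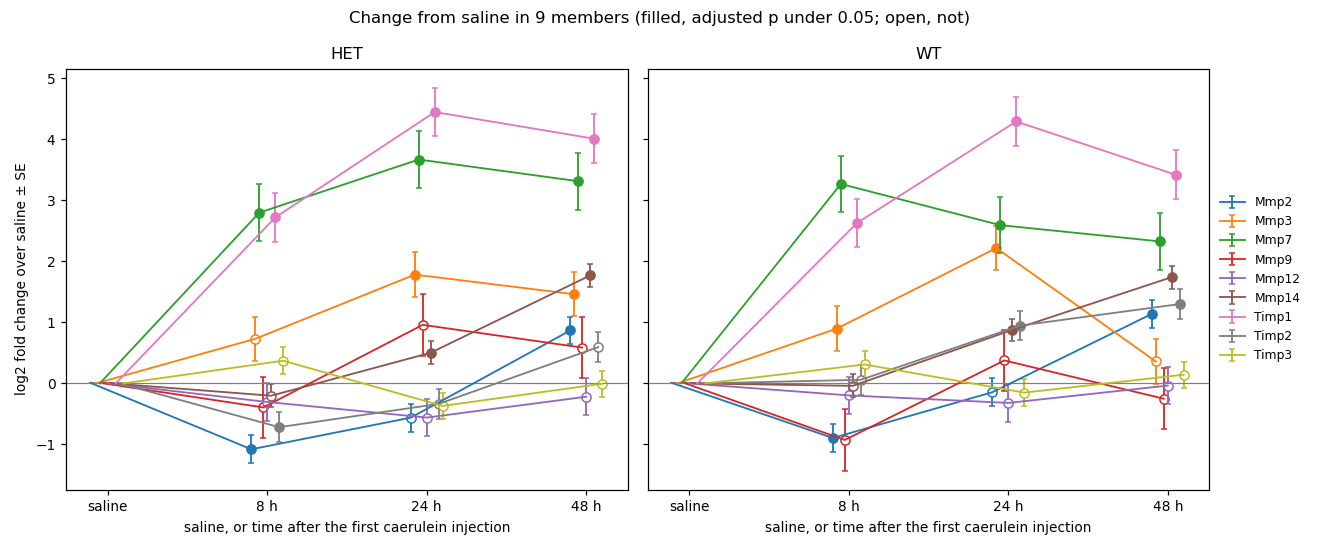
Log2 fold change over saline of the same genotype, ± SE, in HET (left) and WT (right), for the 9 members tested; filled points passed an adjusted p of 0.05. Timp1 and Mmp7 are the 2 upper lines at every time, and Mmp2 is below 0 at 8 h and above 0 at 48 h in both genotypes.

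Mmp14, Mmp2 and Timp2, which act together at the cell surface, had their highest means at 48 h in both genotypes. The 24 h and 48 h libraries differ in guide, so only the change from 8 to 48 h is free of it. Mmp14, the membrane-type proteinase, had 6.7, 6.38 and 5.27 FPKM in HET saline, against 3.67, 3.34 and 4.79 FPKM in WT saline. At 8 h it had 4.81, 4.83 and 5.92 FPKM in HET and 3.94, 3.96 and 3.41 FPKM in WT. HET libraries were the higher at both points. At 24 h the groups overlapped, with 8.26, 8.95 and 10 FPKM in HET and 11.3, 7.92 and 5.62 FPKM in WT. At 48 h it had 18.7, 25.2 and 26.3 FPKM in HET, against 13.1, 17.6 and 15.7 FPKM in WT, without overlap.

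Mmp14 rose from 8 to 48 h by 1.97 ± 0.19 in HET (limma adjusted p = 4.53e-08) and 1.78 ± 0.19 in WT (adjusted p = 1.86e-07), and both times shared a library guide. At 24 h it was above saline by 0.50 ± 0.19 in HET (limma adjusted p = 0.035) and 0.88 ± 0.19 in WT (adjusted p = 0.00109). The HET call at 24 h was lost without HET saline replicate 2 (adjusted p = 0.0525) or 3 (0.121), or HET 24 h replicate 2 (0.069) or 3 (0.112), and also with no filter (0.0593) and under median-of-ratios scaling (0.061). Its genotype difference at 48 h, 0.56 ± 0.19, just missed the threshold (limma adjusted p = 0.0548). It passed without HET 48 h replicate 1 (adjusted p = 0.0256), WT 48 h replicate 2 (0.0366), WT 24 h replicate 1 (0.0265) or WT 24 h replicate 3 (0.0282). In saline the difference was 0.53 ± 0.19 (limma adjusted p = 0.121).

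Mmp2, gelatinase A, was lowest at 8 h. It had 5.66, 6.39 and 6.44 FPKM in HET saline and 5.76, 4.65 and 7.15 FPKM in WT saline. At 8 h it had 1.8, 1.91 and 3.77 FPKM in HET and 2.14, 3.27 and 2.62 FPKM in WT, below every saline library of the same genotype. At 24 h the values were 4.14, 4.2 and 3.27 FPKM in HET and 6.77, 4.99 and 3.96 FPKM in WT. They were 9.61, 14.4 and 12.6 FPKM in HET and 10.1, 15.1 and 17.6 FPKM in WT at 48 h. The genotypes overlapped at each point. Mmp2 fell at 8 h by 1.08 on the log2 scale in HET (SE 0.23, limma adjusted p = 0.00047) and by 0.89 in WT (SE 0.23, adjusted p = 0.00261). From 8 to 48 h it rose by 1.95 ± 0.23 in HET and 2.03 ± 0.23 in WT. Between genotypes the 4 log2 differences ran from -0.34 ± 0.23 at 24 h to 0.08 ± 0.23 in saline, and none was called.

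Timp2, the inhibitor that also links Mmp14 to the Mmp2 proenzyme, was the most abundant inhibitor before injury. It had 23.4, 52.3 and 27.5 FPKM in HET saline, against 17.7, 20.7 and 18.3 FPKM in WT saline, and the HET library with 52.3 FPKM stood well above the other 5. At 8 h it had 15.2, 21.3 and 22.1 FPKM in HET and 17, 22.9 and 19.6 FPKM in WT, which overlapped. At 24 h it had 31.4, 18.5 and 28.2 FPKM in HET, against 39.4, 44 and 29.9 FPKM in WT, and 1 HET library lay above the lowest WT library. At 48 h it had 45.7, 52.6 and 50 FPKM in HET and 40.7, 51.2 and 52.7 FPKM in WT. From 8 to 48 h it rose by 1.31 ± 0.24 in HET (limma adjusted p = 0.00015) and 1.24 ± 0.24 in WT (adjusted p = 0.00028).

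In WT, Timp2 rose at 24 h by 0.95 ± 0.24 (limma adjusted p = 0.00439). In HET, the 24 h value was -0.34 ± 0.24 (limma adjusted p = 0.279), and the difference between these responses was -1.28 ± 0.34 (adjusted p = 0.0547). The HET value rests on HET saline replicate 2, the library at 52.3 FPKM: without it the HET value was 0.00 (limma adjusted p = 1) and the interaction -0.94 (adjusted p = 0.101). The interaction passed without HET saline replicate 1 (-1.51, adjusted p = 0.0202), HET saline replicate 3 (-1.40, adjusted p = 0.0486) or WT 24 h replicate 3 (-1.44, adjusted p = 0.0266). Timp2 fell at 8 h in HET by 0.72 on the log2 scale (SE 0.24, limma adjusted p = 0.0169), but this rests on the same library: without it the value was -0.38 (adjusted p = 0.148), and without HET 8 h replicate 1 it was -0.55 (adjusted p = 0.0932). That call was also lost under enzyme scaling, to the total without digestive enzyme and Reg genes (adjusted p = 0.193), and with the error of the compared groups alone (0.1). At 48 h against saline, the HET value was 0.59 ± 0.24 (limma adjusted p = 0.0533), and it passed without HET saline replicate 2 (0.93, adjusted p = 0.00183). Between genotypes, the saline difference was 0.75 ± 0.24 (limma adjusted p = 0.0962), and it was 0.41 without HET saline replicate 2 (adjusted p = 0.334) and passed without HET saline replicate 1 (0.97, adjusted p = 0.0422). Markers of fibroblasts and adipocytes, with 12 and 8 genes, had interactions of the same sign at 24 h, with medians of -1.31 and -3.83 and 3 genes called lower in each list, where all tested genes had a median of 0.02; their part in the Timp2 values was not tested.

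Timp3, the inhibitor that is held in the matrix, and the leukocyte proteinases Mmp9 and Mmp12 gave no call in any comparison. Timp3 stayed at 6.94 to 14.3 FPKM in HET and 5.58 to 13.6 FPKM in WT libraries over all treatments. Its 4 genotype differences lay between -0.13 ± 0.22 and 0.15 ± 0.22. Mmp9, gelatinase B, known from neutrophils, had 7.41, 3.94 and 4.24 FPKM in HET at 24 h, against 6.1, 3.04 and 0.748 FPKM in WT. At 48 h it had 1.31, 4.2 and 7.36 FPKM in HET and 0.282, 3.44 and 1.39 FPKM in WT, so that the range within each group exceeded the difference between the means. Its genotype difference was largest at 48 h, 0.96 ± 0.50 (limma adjusted p = 0.229). Mmp12, macrophage elastase, was at 1.57 FPKM or less in every library and at least 1 FPKM in only 6.

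Counted over the 9 tested members, the genotype comparison called 0 members in saline, where 2.36% of all tested genes were called in either direction (303 genes), and 0 at 8 h, where 0.218% were (28 genes). An unadjusted p under 0.05 was reached by 5 of the 9 members in saline and 1 of the 9 at 8 h. No share of all tested genes was taken at this unadjusted level, so these counts cannot be set against a background. The same holds for the unadjusted counts of the interactions and of other lists. At 24 h, 2 members were higher in HET and 0 lower, against 3.5% of all tested genes higher and 3% lower. At 48 h, 3 members were higher and 0 lower, against 5.85% and 6.37% of genes. With the error estimated from just the 6 libraries compared, Timp1 was the 1 member called at 24 h and 0 members were called at 48 h, where 26 genes passed in all. The 9 members had a median log2 difference of 0.53 (saline), 0.37 (8 h), 0.21 (24 h) and 0.56 (48 h), where all tested genes had 0.00, 0.01, 0.00 and 0.03. In saline all 9 log2 differences were above 0, and the HET and WT ranges of 5 members did not overlap, which held for 17.4% of all tested genes. These were Mmp3, Mmp7, Mmp14, Timp1 and Timp2. At 8, 24 and 48 h, the ranges of 4, 2 and 4 of the 10 members did not overlap, against 14.9%, 24.8% and 34.2% of all tested genes. At 24 and 48 h the members therefore did not stand out by this rule.

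**Figure D3:**
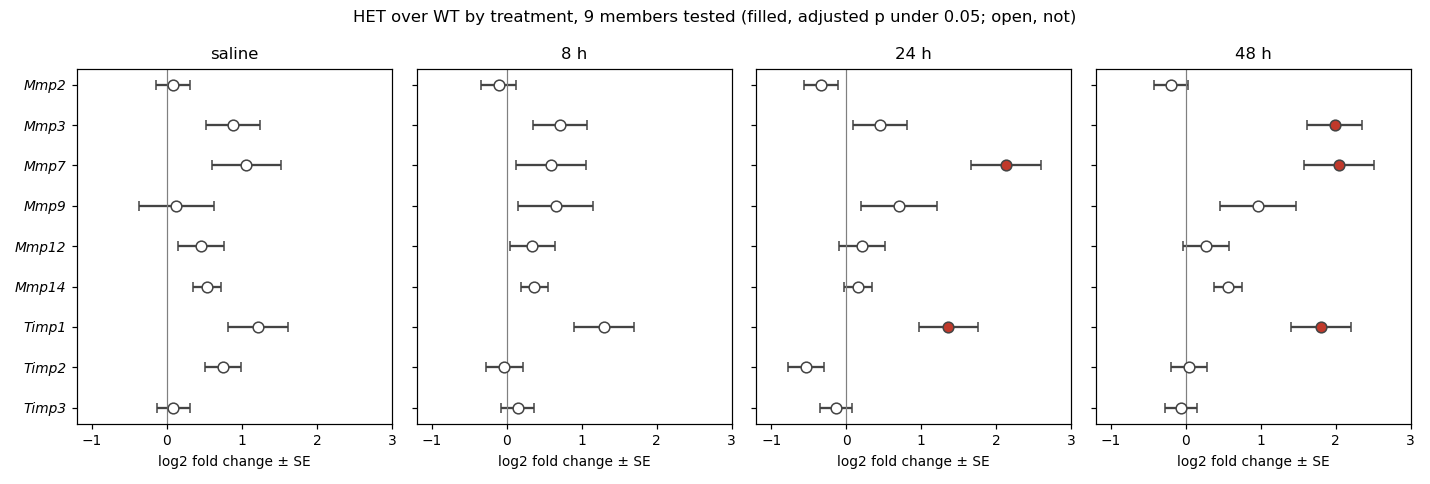
Log2 difference of HET over WT ± SE for the 9 members tested (rows), in saline and 8, 24 and 48 h after the first injection (panels); filled points passed an adjusted p of 0.05. Filled points are Mmp7 and Timp1 at 24 h and Mmp3, Mmp7 and Timp1 at 48 h, and all points lie right of 0 in saline.

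Against saline, 2 members were higher and 2 lower at 8 h in HET (30.7% and 24.5% of all tested genes), and 3 were higher and 1 lower at 8 h in WT (28.2% and 22.8%). At 24 h, 4 were higher in HET (23.9% of genes) and 5 in WT (20.5%), with 0 lower in either (19.8% and 18.7%). At 48 h, 5 were higher in HET (24.2%) and 5 in WT (11.8%), with 0 lower (20% and 13.5%). From 8 to 48 h, 4 rose in HET (23.4%), which were Mmp2, Mmp14, Timp1 and Timp2, and 3 in WT (22.5%), which were Mmp2, Mmp14 and Timp2. The comparisons with saline share their saline libraries within a genotype. Timp1 rose by 1.29 ± 0.40 from 8 to 48 h in HET (limma adjusted p = 0.0106), a call lost without HET 8 h replicate 2 (adjusted p = 0.0511) or HET 48 h replicate 3 (0.075); the WT value was 0.79 ± 0.40 (adjusted p = 0.107). For the interactions, 0 of 9 members were called, against 2.31% of genes for 24 h against saline and 0.723% for 48 h against 8 h. An unadjusted p under 0.05 was reached by 1 member in the first and by 2 members in the second.

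The make-up of both families shifted with time. Summed over the 7 proteinases, HET saline libraries held 18.2 to 20 FPKM and WT saline libraries 10.2 to 17.5 FPKM. At 48 h the sum was 47.4 to 90 FPKM in HET and 26.1 to 48.5 FPKM in WT. Mmp2 and Mmp14 led in saline, with Mmp2 at 31 to 34.4% of the sum in HET and 40.9 to 48.1% in WT. Mmp7 led at 8 h, with 47.2 to 54.4% in HET and 43.4 to 53.3% in WT, and at 24 h its share was 45.6 to 51.7% in HET, against 7.63 to 31.4% in WT. Among the 3 inhibitors, Timp1 made up 5.5 to 12.3% of the sum in HET saline and 3.44 to 4.07% in WT saline. At 24 h it made up 71.4 to 80.2% in HET and 38.2 to 55.8% in WT. The inhibitor sum divided by the proteinase sum stayed between 1.6 and 4.11 in all 24 libraries, with group means of 2.05 in HET 48 h to 2.95 in WT 24 h.

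**Figure D4:**
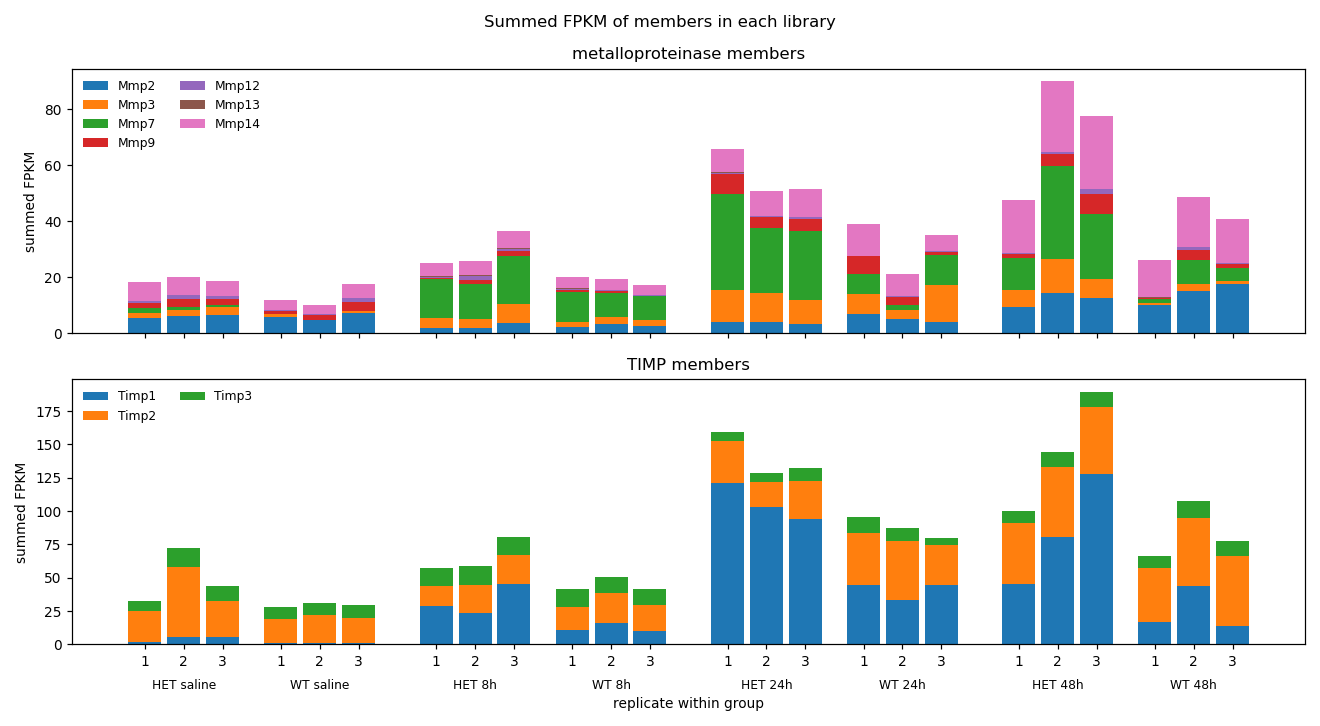
Stacked FPKM of the 7 proteinases (top) and the 3 inhibitors (bottom) in each of the 24 libraries, grouped by treatment with HET left of WT, so that bar height is the family's summed FPKM. The Timp1 segment is at least 71.4% of the inhibitor sum in HET at 24 h, against at most 12.3% in HET saline.

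Across the 24 libraries, likeness between members is given as Pearson's r of log2(FPKM + 1), a description over libraries that share groups and guides. Timp1 was most like Mmp7 (r = 0.89) and Mmp3 (0.83), and Mmp3 and Mmp7 were alike at 0.80. With group means removed, r was 0.44, 0.58 and 0.80 for these 3 pairs. Mmp14 was most like Timp2 (0.81) and Mmp2 (0.78), and Mmp2 and Timp2 were alike at 0.78, which became 0.29, 0.68 and 0.38 with group means removed. Across these trios, r ran from -0.13 for Mmp2 and Mmp7 to 0.61 for Mmp14 and Timp1.

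**Figure D5:**
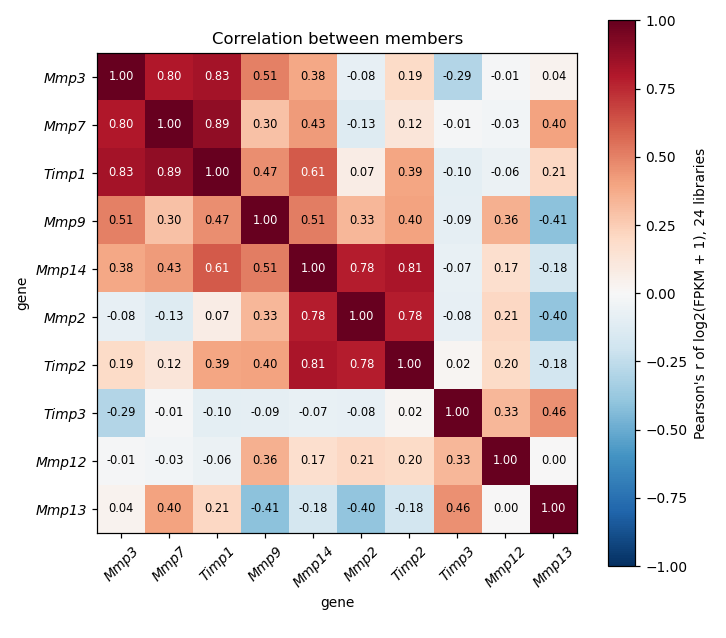
Pearson's r between each pair of the 10 members over 24 libraries, on log2(FPKM + 1); both axes list the genes and the colour runs from -1 to 1. Mmp3, Mmp7 and Timp1 form one block with r of 0.80 to 0.89, and Mmp2, Mmp14 and Timp2 another with 0.78 to 0.81.

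By the same measure, the closest genes outside the set were sought among 5484 genes with a mean of at least 5 FPKM. For Timp1 they were Neurl3 (r = 0.97), Nfkb2, a subunit of NF-kappa-B (0.96), and Arpc1b, an actin-branching subunit (0.95). The closest to Mmp7 were Il4ra, the interleukin 4 receptor chain (0.95), Anxa3 (0.94) and Rhoc (0.93), and to Mmp3 they were Cdc42 (0.91), Prdx1 (0.90) and Capza1 (0.90). Mmp14 was closest to the collagen genes Col5a2 (0.94) and Col5a1 (0.94) and the procollagen proteinase Bmp1 (0.94). Mmp2 was closest to Lum (0.91), Ogn (0.90) and Col14a1 (0.89), which encode matrix proteins made by fibroblasts, and Timp2 to Col6a1 (0.90), Pcolce (0.90) and Sparc (0.89). Mmp9 was closest to Il2rg (0.87) and Itgb2 (0.85), receptor chains of leukocytes, and to Gm2a (0.85). Below these stood Timp3 with Lamc1 (0.76), Gm17201 (0.76) and Sptbn1 (0.76), Mmp13 with Rrad (0.84), Slc20a1 (0.83) and Nsmf (0.83), and Mmp12 with Arhgef1 (0.65), Fcna (0.62) and Alas1 (0.60).

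Markers of other cells moved with several of these results, and their part in them was not tested. The summed level of 13 macrophage markers was 300.5 to 643 FPKM in HET saline, against 96.4 to 233 FPKM in WT saline. It was 915 to 1425 FPKM in HET and 645 to 1109 FPKM in WT at 24 h, and 1009 to 1778 FPKM in HET and 315 to 1080 FPKM in WT at 48 h, with none of the 13 at 0 throughout any of these groups. The 12 fibroblast and stellate cell markers summed to 240 to 415 FPKM in HET saline, against 117 to 197 FPKM in WT saline, and the 8 adipocyte markers to 286 to 607 FPKM in HET saline, against 72.1 to 152 FPKM in WT saline. At 24 h the adipocyte sum was 52.6 to 145 FPKM in HET, against 132 to 435 FPKM in WT, and at 48 h it was 28.5 to 120 FPKM in HET and 63 to 221 FPKM in WT, with overlapping ranges at both times. The fibroblast sum at 24 h was 366 to 453 FPKM in HET and 368 to 616 FPKM in WT. At 48 h the fibroblast sum was 566 to 783 FPKM in HET and 517 to 590 FPKM in WT. The 7 duct markers summed to 953 to 1050 FPKM in HET at 24 h, against 431 to 732 FPKM in WT. Duct ranges overlapped at 8 h and in saline (209 to 404 FPKM in HET, 260 to 347 FPKM in WT). They also overlapped at 48 h (357 to 784 FPKM in HET, 356 to 476 FPKM in WT). The 8 endothelial markers summed to 36.7 to 40.7 FPKM in HET at 8 h, against 28.1 to 35.6 FPKM in WT. At 48 h the order turned, with 19.1 to 31.6 FPKM in HET and 41.3 to 48.9 FPKM in WT. Only in saline were the 6 islet markers apart, at 970 to 1447 FPKM in HET and 2740 to 5212 FPKM in WT. The 12 neutrophil markers summed to 124 to 325 FPKM in HET and 12.4 to 178 FPKM in WT at 24 h, with Mpo and Camp listed at 0 throughout HET 24 h and Ly6g throughout WT 24 h. At 8 h, HET sums lay above WT sums for macrophages (393.5 to 553 against 189 to 311 FPKM) and neutrophils (47.1 to 73.6 against 7.02 to 24.35 FPKM). Of the neutrophil markers, 2 were listed at 0 throughout HET 8 h and 5 throughout WT 8 h. Fibroblast sums (185 to 194 against 124 to 150 FPKM) and adipocyte sums (154 to 263 against 58.9 to 136 FPKM) were also apart then. The acinar, islet, B cell and T cell sums overlapped at 8 h.

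Of the 16 other metalloproteinases, 6 passed the filter. Mmp19, a proteinase of stromal cells, was higher in HET saline (0.87 ± 0.22, limma adjusted p = 0.0407), with a mean of 2.39 ± 0.76 FPKM in HET and 0.82 ± 0.13 FPKM in WT (SD, n = 3 each). Mmp8, neutrophil collagenase, was higher in HET at 8 h (1.16 ± 0.17, limma adjusted p = 0.00356) and 24 h (0.76 ± 0.17, adjusted p = 0.0104), and Mmp15, a membrane-type proteinase, at 24 h (1.12 ± 0.21, adjusted p = 0.00371). For Mmp15 the response differed between genotypes: it rose at 24 h in HET by 0.71 ± 0.21 and fell in WT by 0.66 on the log2 scale (SE 0.21), with an interaction of 1.37 ± 0.29 (limma adjusted p = 0.0172). Of the inhibitors Timp4, Reck and A2m, 2 were tested, and neither was called between genotypes. Timp4 fell in HET by 1.10 at 24 h (SE 0.34, limma adjusted p = 0.013) and by 1.08 at 48 h (SE 0.34, adjusted p = 0.0145). That fall starts from a low and uneven saline level, 1.39 ± 1.34 FPKM in HET, against 0.287 ± 0.111 FPKM in WT (SD, n = 3 each).

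Plasminogen activation, which starts the cascade that activates several MMPs, was tested through 8 of 10 genes. In saline 2 were higher in HET, both parts of the plasmin-assembling complex, Anxa2 (1.32 ± 0.23, limma adjusted p = 0.00487) and S100a10 (1.01 ± 0.25, adjusted p = 0.0395). Of all tested genes, 1.15% were higher in HET saline. At 8 h, limma called 0 of 8 between genotypes, where 0.218% of all tested genes were called, and 3 of 8 had an unadjusted p under 0.05. Anxa2 was higher in HET also at 24 h (0.77 ± 0.23, limma adjusted p = 0.0454) and 48 h (0.83 ± 0.23, adjusted p = 0.0215), and Plat, the tissue-type activator, at 48 h (0.92 ± 0.28, adjusted p = 0.0385). Plaur, the urokinase receptor, rose at 8 h by 4.04 ± 0.25 in HET (limma adjusted p = 7.53e-11) and 3.63 ± 0.25 in WT (adjusted p = 3.7e-10). Against saline, 7 of 8 were higher and 1 lower at 48 h in HET (24.2% and 20% of all tested genes), and 6 higher and 0 lower in WT (11.8% and 13.5%).

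The matrix proteins that MMPs cleave were represented by 16 genes, all tested. At 24 h, 2 were lower in HET and 0 higher: Col6a2 fell by 0.93 on the log2 scale relative to WT (SE 0.22, limma adjusted p = 0.0154) and Col6a1 by 0.93 (SE 0.24, adjusted p = 0.0256). At 48 h, 5 were higher in HET and 0 lower, led by Col1a1 (1.41 ± 0.35, limma adjusted p = 0.0142), Col6a3 (1.18 ± 0.30, adjusted p = 0.0148) and Col1a2 (1.13 ± 0.31, adjusted p = 0.0212). Col1a1 then averaged 214 ± 83.5 FPKM in HET and 82.5 ± 44.4 FPKM in WT (SD, n = 3 each). The median log2 difference of the 16 genes was -0.39 at 24 h and 0.38 at 48 h, where all tested genes had 0.00 and 0.03, with 3% of them lower at 24 h and 5.85% higher at 48 h.

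Among 15 tested ADAM and ADAMTS proteinases, which share the metalloproteinase fold, 0 were lower in HET at any point, and 1 was higher at 24 h, 2 at 48 h, 1 in saline and 0 at 8 h (5 of 15 with an unadjusted p under 0.05 in limma at 8 h). Of all tested genes, 3.5% were higher at 24 h, 5.85% at 48 h, 1.15% in saline and 0.171% at 8 h. Lower were 3%, 6.37%, 1.21% and 0.0467%. The 2 proteinases higher at 48 h were Adam12 (0.90 ± 0.25, limma adjusted p = 0.022) and Adamts4 (0.79 ± 0.22, adjusted p = 0.0235). Of 5 cathepsins, lysosomal proteases, 3 were higher in HET at 48 h, against 5.85% of all tested genes: Ctsb (1.04 ± 0.21, limma adjusted p = 0.00383), Ctsd (0.86 ± 0.19, adjusted p = 0.00695) and Ctss (1.40 ± 0.43, adjusted p = 0.0388). Of 6 tested surface partners of MMPs, Bsg, an inducer of MMP production also called basigin, fell by 0.60 in HET relative to WT at 48 h (SE 0.19, limma adjusted p = 0.0468), and the other 5 were not called. Of all tested genes, 6.37% were lower at that time.

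Some members share sequence with neighbours, and the sources used here do not say whether counting used strand. Timp3 exons overlap those of Syn3 on the other strand (at most 0.68 FPKM), Mmp12 exons those of Mmp1b (0 in every library) and Mmp7 exons those of the antisense transcript AV064505 (0 in every library). Timp1 lies within Syn1 (at most 0.713 FPKM) without sharing exons.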

How the data were processed

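PolyA RNA of whole pancreas was sequenced on an Illumina Genome Analyzer IIx; RNA integrity numbers were 6.6 to 9.2, per the labels' protocols. Libraries were amplified for 10 PCR cycles (earlier guide) or 8 (v2 guide). The deposited values are FPKM, written with 3 significant digits. The tools were Cufflinks 2.0.2 with Cuffnorm, Bowtie and CASAVA 1.8, and the genome build mm9, per the submitters' processing notes, which give no roles. Sequencing depth is not given in the sources used here. Only the relative number of fragments per FPKM was recovered, from steps of low FPKM values, taking 1 step as 1 fragment.

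Here FPKM were analysed as log2(FPKM + 1), with no rescaling, in limma 3.58.1 (R 4.3.3; trend and robust empirical Bayes), with 1 mean for each of the 8 groups and 16 residual degrees of freedom. Genes had to reach 1 FPKM in 3 or more libraries, which left 12871 of 36806 (12784 were at 0 throughout); 14 comparisons were fitted. Where a group was listed at 0 in all 3 libraries while another group was at 100 FPKM or more in all of its libraries, its values were treated as missing (22 genes, 68 gene and group combinations, no member). Of 10 acinar markers, 6 were summed and the others left out of the acinar sum for this reason. Groups came from the genotype and treatment labels; replicates are numbered in accession order and pair nothing. Within groups, libraries correlated at 0.879 to 0.949 and at most 0.683% of values were identical, so none was counted as a duplicate.

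All members are described. From other lists, up to 3 genes per list, direction and comparison with the smallest adjusted p among those called are eligible to be named, and for each member the 3 genes most like it; genes of the chromosome 9 cluster were named for their position. Members and lists were chosen with earlier results of these data known. Promoters came from a RefSeq table on GRCm38.p6, and gene overlaps from a GRCm38 annotation, matched by gene ID; 31840 IDs had an official symbol. Python 3.11.15, pandas 2.3.3, numpy 2.4.6 and matplotlib 3.10.9 were used. Alternatives were another pseudocount, no filter, zeros kept, 2 rescalings, the spread of the compared groups alone, and leaving out each library.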

Additional observations from a re-analysis of the deposited data

Results flagged for a closer look

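At 24 h, Timp2 lay on opposite sides of the saline mean in the 2 genotypes. Every HET library at 24 h, at 18.5 to 31.4 FPKM, lay below the HET saline mean of 34.4 FPKM, and every WT library at 24 h, at 29.9 to 44 FPKM, lay above the WT saline mean of 18.9 FPKM. The change in mean FPKM was smaller in HET than in WT, by -27.2 FPKM (HET minus WT). The limma interaction, tested on the log2 scale, was -1.28 ± 0.34 (adjusted p = 0.0547) and so missed the threshold, and the HET saline mean includes 1 library at 52.3 FPKM, HET saline replicate 2. Without that library the HET value on the log2 scale was 0.00 and the interaction was -0.94 (limma adjusted p = 0.101), so the HET side of the contrast rests on it. In the same interaction, 3 of 12 fibroblast and stellate cell markers were called lower and 0 higher (median -1.31), as were 3 of 8 adipocyte markers (median -3.83) and 3 of 16 matrix genes (median -1.11), where 2.31% of all tested genes were called with a median of 0.02. Their part in the Timp2 result was not tested.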

How the results depend on the processing

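Of 126 tested member results, 39 passed the threshold, and 30 of these passed in each of the 6 alternatives and without any 1 library. Of those that did not pass, 18 passed in at least 1 alternative. A change of sign between 2 values that were both uncalled was not counted as a reversal. No paired analysis was possible because the replicate numbers were given in accession order and pair no samples. In saline, the count of called members went to 2 with a pseudocount of 0.1. At 24 h between genotypes it went to 1 with that pseudocount, with no filter, under both rescalings and with an error estimated from the compared groups only, and at 48 h it went to 0 with that error; in HET it was 8 for 48 h against saline and 7 for 48 h against 8 h when libraries were scaled to their total after removing digestive enzyme and Reg genes (enzyme scaling). Leaving out 1 library gave 0 to 2 members in saline, 0 to 2 at 24 h, 1 to 4 at 48 h (1 without WT 48 h replicate 1) and 0 to 1 for the 24 h interaction. Enzyme scaling turned Timp3 in HET at 48 h against saline to 0.99 (adjusted p = 0.0123), and Nr5a2 at 24 h against saline to 0.013 in WT and 0.19 in HET; Nr5a2 was otherwise lower at 24 h. Under that scaling the median of all genes was 0.14 at 24 h and 0.39 at 48 h between genotypes, against 0.00 and 0.03 without it, and up to 0.85 against saline (HET 48 h, 0.09 without it), and the Mmp3, Mmp7 and Timp1 differences at 48 h were then 2.44, 2.50 and 2.28, with Mmp14 called at 1.03 (adjusted p = 0.0105). Under it 3139 genes were higher and 331 lower at 48 h, against 753 and 819, and 363 and 167 at 24 h, against 450 and 386; its share of higher calls was 94% for WT 24 h, 94.8% for WT 48 h, 92.7% for HET 24 h and 93.3% for HET 48 h against saline, against 52.3, 46.8, 54.7 and 54.7% without it, 77.6% for WT and 84.9% for HET 48 h against 8 h, against 45.1 and 45%, and 90% at 8 h between genotypes, against 78.6%. Scaling by the median of ratios gave 55.5% in WT for 48 h against 8 h. All-gene calls between genotypes (saline, 8, 24 and 48 h) were 11, 10, 530 and 3470 under enzyme scaling and 1, 4, 254 and 26 from the compared groups only, against 303, 28, 836 and 1572; a pseudocount of 0.1 gave 5 at 8 h. Against saline the enzyme scaling gave 7838 in WT and 8653 in HET at 24 h and 8844 in HET at 48 h, and the compared groups alone 3184 and 1781 in WT at 24 and 48 h. The interactions gave 45 and 100 (24 h), and 8, 6 and, with the pseudocount of 0.1, 48 (48 h against 8 h), against 297 and 93. The cause of these shifts was not tested. Saline libraries had the fewest fragments per FPKM, with 1 WT 24 h library among them, so members near 1 FPKM are least certain there.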
